A study of Mus musculus with 93 samples.

Results

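Integrins are cell surface receptors made of 1 alpha and 1 beta chain, and the set described here is 10 integrin subunit genes of the mouse lung that include Itga8. They were picked by gene name, as rows of both expression tables with numeric values: Itga1, Itga3, Itga5, Itga6, Itga8, Itga9, Itgav, Itgb1, Itgb5 and Itgb6. Values were found for 8 of the 10, namely 6 alpha chains and 2 beta chains, among 21284 genes in all. The rows of Itga9 and Itgb6 hold no numbers in either table, so both are not analysed here.

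Transcripts were measured in 93 libraries of single cells from the lungs of adult C57BL/6 mice that carried Tbx4cre and the RosaTm reporter. In such mice a cell in which the Tbx4 gene, a transcription factor of lung mesenchyme, drove Cre recombinase is marked for good together with its descendants. The 54 Tbx4 lineage+ libraries came from marked cells and the 39 Tbx4 lineage- libraries from unmarked cells. By the labels both groups share the genotype, the strain and the adult stage. Tbx4 itself has no values, so the labels could not be checked against it. The sorting labels name Epcam-positive cells without CD31, CD45 or the dead-cell dye 7AAD, whereas the design text calls both groups mesenchymal. No label gives the sex, the number of mice or which cells came from which mouse. Cell names carry 1 prefix in lineage+ and another in lineage-. Only the lineage+ prefix could be read as an age, so an equal age is not certain. Each group was therefore taken as 1 sample, and a difference of preparation, chip or age cannot be told apart from the lineage. No p-value is given, and intervals on shares cover the counting of cells only.

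Levels are FPKM, read fragments scaled for transcript length and for the size of the library, the unit that the values themselves point to. A gene was called detected in a cell at 1 FPKM or more. The profiles of lineage+ cells 2 and 15 and of cells 9 and 23 were nearly identical, with Pearson r of 0.996 and 0.997 against at most 0.596 for any other pair, and each pair was averaged and counted once. A cell was kept if it showed 1000 genes or more, which left 50 lineage+ and 34 lineage- cells. One kept lineage- well, cell 23, carries the word debris in its name, and the results without it are among the alternatives below. Kept lineage+ cells had a median of 2411.5 detected genes (range 1070 to 3707) and lineage- cells 1811 (1026 to 2826). Lineage+ cells thus show more genes each, which bears on every share of cells below. The reads behind a single value are unknown. A value of exactly 0 need not mean absence: Gapdh, a gene of general metabolism, was listed at 0 in 4 of the 50 lineage+ and 2 of the 34 lineage- cells.

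The alpha chain sets most of an integrin's choice of ligand, and the beta chain links it to the cytoskeleton through adaptors such as talin. The beta 1 chain pairs with many alpha chains, among them alpha 1 (a collagen receptor), alpha 3 and alpha 6 (laminin receptors), alpha 5 (the classical fibronectin receptor) and alpha 8, which binds the matrix protein nephronectin. The alpha v chain can pair with beta 1 or beta 5 and binds the RGD sequence of vitronectin and of latent TGF-beta, while beta 5 is known to pair with alpha v only.

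The promoters of Itga8 and Itgb1 are shown because these were the alpha and beta chain detected in most lineage+ cells and were found together. Each is 200 bases that end 50 bases before the start in the RefSeq promoter table (GRCm38.p6), outside the RefSeq span of the gene, read 5′ to 3′ on the strand of the gene. The RefSeq span of Itga8 runs up to chr2:12301985, nearer to its window than the start in the promoter table. The RefSeq table held 9 of the 10 genes. Capitals mark E-boxes, CANNTG, the motif bound by basic helix-loop-helix factors such as Tcf21, whose levels followed those of Itga8 across cells (below). The motif reads the same on both strands.
Itga8: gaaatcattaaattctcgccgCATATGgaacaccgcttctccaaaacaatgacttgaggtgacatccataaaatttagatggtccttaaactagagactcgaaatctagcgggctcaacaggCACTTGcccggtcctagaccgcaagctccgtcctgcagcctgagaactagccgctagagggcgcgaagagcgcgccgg
Itgb1: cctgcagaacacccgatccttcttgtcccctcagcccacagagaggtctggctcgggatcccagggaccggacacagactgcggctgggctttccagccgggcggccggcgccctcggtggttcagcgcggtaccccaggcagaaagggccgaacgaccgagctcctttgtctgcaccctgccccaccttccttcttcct
The Itga8 window lies at chr2:12301995-12302194 on the minus strand and holds 2 E-boxes, and at least 2 were found in 24.3% of 32851 mouse promoter windows of this length. The Itgb1 window lies at chr8:128685404-128685603 on the plus strand and holds none, whereas 59.05% of windows hold at least 1. Both are rich in the dinucleotide CG, with 14 in each against a median of 4. Neither holds the TATA-box letters TATAAA on either strand, which 9.14% of windows do. An E-box match is a description of letters and not a binding site.

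Itga8 had the highest ratio of lineage+ to lineage- level among the members. The gene spans chr2:12106660-12301920 on the minus strand (GRCm38). Its level ran from 0 to 383 FPKM over the 50 lineage+ cells with a median of 3.24 FPKM, and from 0 to 12.6 FPKM over the 34 lineage- cells with a median of 0. Detected values in lineage+ cells began at 1.82 FPKM and had a median of 26.8 FPKM. In lineage+, 28 of 50 cells had it (56%), with an exact 95% interval of 41.3 to 70.0%. In lineage-, 2 of 34 cells had it (5.88%, interval 0.720 to 19.7%), and these intervals do not overlap. Among cells with at least 2000 genes the shares were 60% (42.1 to 76.1) and 16.7% (2.09 to 48.4), and those intervals do overlap. The mean over lineage+ cells was 37.8 FPKM and that over lineage- cells 0.559 FPKM, a log2 ratio of 4.64 after 1 FPKM was added to both. This ratio ranked 57 among the 21284 genes, counted from the highest in lineage+.

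The mean level of Itga8 in lineage+ cells rested on many cells. Cell 35 was highest at 383 FPKM and gave 20.2% of the sum, followed by cell 49 at 326 FPKM and cell 53 at 165 FPKM. In all, 17 lineage+ cells reached 10 FPKM, 6 had a value above 0 but under 1 FPKM, and 16 were listed at 0. The groups overlapped, since many lineage+ cells at or near 0 were as low as most lineage- cells and since 2 lineage- cells lay among the detected lineage+ values. These lineage- cells were cell 4 at 12.6 FPKM and cell 10 at 6.21 FPKM. Both carried fibroblast genes: of the measured markers, cell 4 showed 6 of alveolar and 8 of adventitial fibroblasts, and cell 10 showed 5 and 9. Cell 10 also showed 9 immune markers and cell 4 showed 2.

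**Figure D1:**
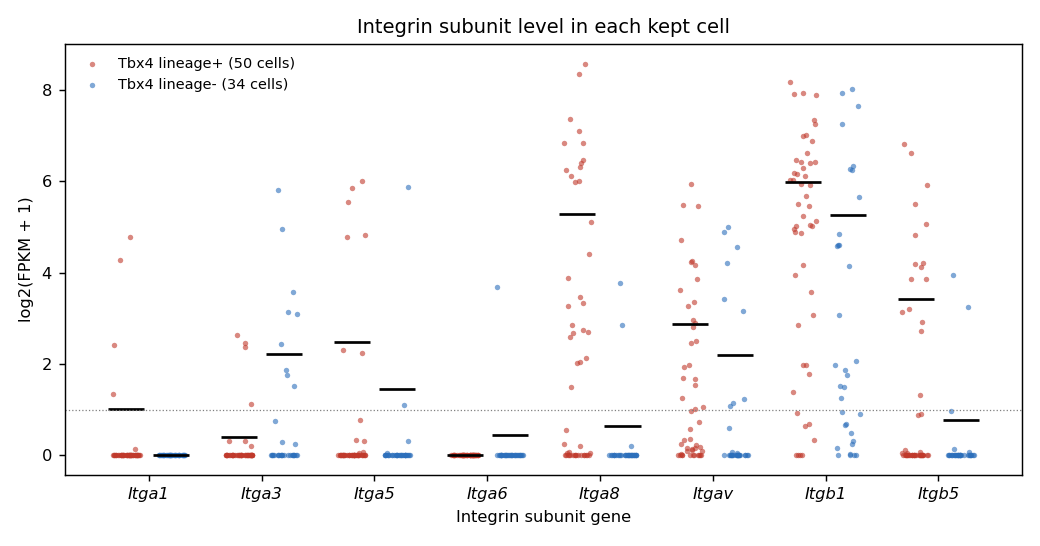
Level of the 8 measured integrin subunit genes in each kept cell, on a log2(FPKM + 1) axis, with 50 Tbx4 lineage+ and 34 Tbx4 lineage- cells as points. Horizontal bars are log2(mean FPKM + 1) and the dotted line marks the detection threshold of 1 FPKM. Itga8 reaches 383 FPKM in lineage+ cells and 12.6 FPKM in lineage- cells.

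Itgav, the alpha v chain (chr2:83724397-83806916, plus strand), was the next most frequent alpha chain in lineage+ cells and was found in both groups. It ran from 0 to 60.3 FPKM in lineage+ cells with a median of 0.808 FPKM, and from 0 to 31.2 FPKM in lineage- cells with a median of 0. Of 50 lineage+ cells 24 had it (48%, 33.7 to 62.6), as did 9 of 34 lineage- cells (26.5%, 12.9 to 44.4). The intervals overlap, as do the values. The log2 ratio of means, 6.31 against 3.58 FPKM, was 0.68. Among cells with at least 2000 detected genes the lineage- share was 50%, or 6 of 12 cells.

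Itga3, an alpha chain of laminin receptors (chr11:95044482-95076714, minus strand), went the other way in these libraries. Its values ran from 0 to 5.18 FPKM in lineage+ cells and from 0 to 55.5 FPKM in lineage- cells, with medians of 0. Only 4 of 50 lineage+ cells had it (8%, 2.22 to 19.2), against 9 of 34 lineage- cells (26.5%, 12.9 to 44.4). The means were 0.314 and 3.65 FPKM, a log2 ratio of -1.82. The highest levels were in lineage- cells 31 and 28, at 55.5 and 30.0 FPKM, and cell 31 gave 44.7% of the sum. Among cells with at least 2000 detected genes the ratio was -0.46.

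The remaining alpha chains were found in few cells. Itga5, of the fibronectin receptor (chr15:103344286-103366748, minus strand), reached the threshold in 7 of 50 lineage+ cells (14%, 5.82 to 26.7), at most 63.8 FPKM in cell 48, and in 2 of 34 lineage- cells. Lineage- cell 9, at 58.2 FPKM, held 97.6% of the lineage- sum. The log2 ratio of 1.02 therefore turned on that cell, and it was 2.07 when the highest cell of each group was left out. Itga1, of the collagen receptor (chr13:114958081-115101964, minus strand), was at 26.6, 18.4, 4.34 and 1.53 FPKM in lineage+ cells 8, 37, 45 and 41. It was listed at 0 in all 34 lineage- cells, where the exact interval for a share at 1 FPKM reaches 10.3%, so no fold is given. Itga6, of laminin receptors (chr2:71787083-71856758, plus strand), was listed at 0 in all 50 lineage+ cells, with an exact interval that reaches 7.11%, and was at 12.0 FPKM in lineage- cell 17 alone.

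The alpha chains can be compared with one another because FPKM are per length. Shares were taken of the summed means of the 6 measured alpha chains of the set. In lineage+ cells Itga8 made up 75.6%, Itgav 12.6%, Itga5 9.15%, Itga1 2.04% and Itga3 0.627%. In lineage- cells Itga3 made up 36.9%, Itgav 36.2%, Itga5 17.7%, Itga8 5.65% and Itga6 3.56%. Single lineage- cells weigh on these: cell 31 gave 44.7% of the Itga3 sum, cell 9 97.6% of the Itga5 sum. Cell 17 gave all of the Itga6 sum. Alpha chains outside the set are not counted, and in lineage- cells Itgax had a mean of 30.5 FPKM against 3.65 FPKM for Itga3. In lineage+ cells the order by share of cells was Itga8, Itgav, Itga5, then Itga1 and Itga3 at the same share. The intervals of the neighbours Itga8 and Itgav overlap, those of Itgav and Itga5 do not, and those of Itga5, Itga1 and Itga3 do.

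Of the beta chains, Itgb1 (chr8:128685654-128733579, plus strand) was the member detected in most cells of both groups. It ran from 0 to 288 FPKM in lineage+ cells with a median of 39.9 FPKM, and from 0 to 260 FPKM in lineage- cells with a median of 2.52 FPKM. Of 50 lineage+ cells 42 had it (84%, 70.9 to 92.8), and of 34 lineage- cells 21 did (61.8%, 43.6 to 77.8). The highest cells of the groups were alike, and the intervals overlap. The difference lay lower down: 36 of the 50 lineage+ but 13 of the 34 lineage- cells reached 10 FPKM. The means of 62.7 and 37.7 FPKM gave a log2 ratio of 0.72. Among cells with at least 2000 detected genes that ratio was 0.12, and Itgb1 was detected in 10 of the 12 such lineage- cells (83.3%).

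Itgb5, the beta 5 chain (chr16:33829665-33949338, plus strand), was mostly found in lineage+ cells. Its values ran from 0 to 112 FPKM in lineage+ cells and from 0 to 14.4 FPKM in lineage- cells, with medians of 0. It reached 1 FPKM in 16 of 50 lineage+ cells (32%, 19.5 to 46.7), and in lineage- cells in 2 of 34 (5.88%, 0.720 to 19.7). The intervals just overlap. The highest lineage+ levels were in cells 12, 49 and 52 at 112, 97.7 and 59.9 FPKM, and the lineage- cells were cell 5 at 14.4 FPKM and cell 1 at 8.55 FPKM. The means of 9.68 and 0.707 FPKM gave a log2 ratio of 2.65.

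**Figure D2:**
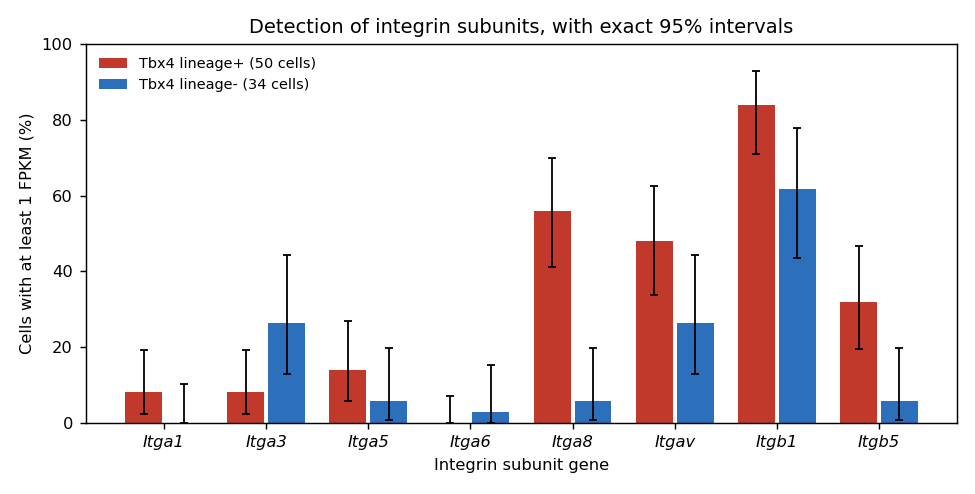
Share of kept cells with at least 1 FPKM of each of the 8 measured subunit genes in 50 Tbx4 lineage+ and 34 Tbx4 lineage- cells, as bars from 0 to 100%. Error bars are exact 95% intervals for the counting of cells. Itga8 stands at 56% against 5.88%, with intervals that do not overlap here but do among cells with at least 2000 genes, and Itgb1 at 84% against 61.8%.

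Over the 8 measured members, 4 had a lineage+ mean 2-fold or more above the lineage- mean on the scale with 1 FPKM added, where 15.1% of all genes did. These were Itga8, Itgb5, Itga5 and Itga1, the last 2 barely so. Under most alternatives the count was lower, from 1 to 3, and it was 2 with every profile counted separately. Itga3 alone was at least 2-fold lower, where 13.1% of all genes were. Among the 7587 genes that 10% or more of the cells of a group held, these shares were 29.7% and 23.4%. The median log2 ratio of the 8 members was 0.87, that of all genes 0 and that of the genes so detected 0.15. In lineage+ cells Itga8 and Itgb1 were detected in at least 50% of cells, as were 6.21% of all genes.

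Most lineage+ cells held an alpha and a beta chain of the measured set together. Of 50 lineage+ cells, 35 (70%) had at least 1 alpha and 1 beta chain, 4 had alpha chains only, 9 had beta chains only and 2 had none. Of 34 lineage- cells, 15 (44.1%) had both kinds, 3 alpha only, 6 beta only and 10 none. More than 1 alpha chain was seen in 23 lineage+ and 5 lineage- cells. The number of members per cell had a median of 3 in lineage+ cells, with at most 5, and 1.5 in lineage- cells, with at most 3. It moved with the number of genes seen: lineage+ cells with 1, 2, 3 and 4 members had medians of 2133, 2158, 2360 and 2849 detected genes. The part of gene number in the difference between groups was not tested.

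**Figure D3:**
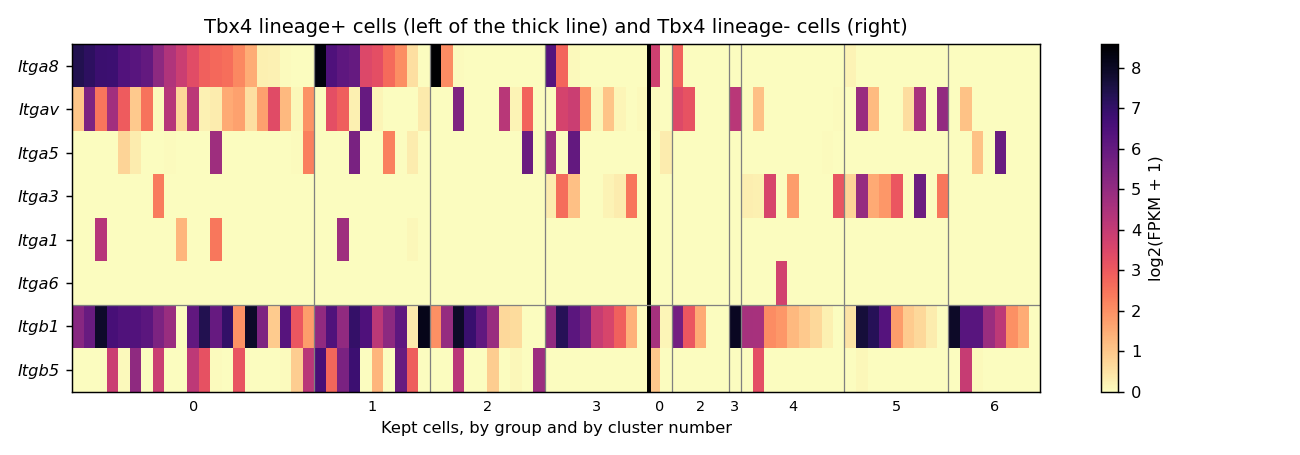
Level of each of the 8 measured subunits, as colour on a log2(FPKM + 1) scale, in every kept cell, with Tbx4 lineage+ and Tbx4 lineage- cells set apart. At least 1 alpha and 1 beta chain are detected together in 35 of the 50 lineage+ and 15 of the 34 lineage- cells.

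Itga8 was nearly always found with Itgb1, the chain it is known to pair with. Itgb1 was detected in 27 of the 28 lineage+ cells with Itga8 (96.4%, 81.7 to 99.9) and in 15 of the 22 without it (68.2%, 45.1 to 86.1). The exception was cell 41, with Itga1 and Itga8 but no beta chain of the set. The intervals overlap, and cells with Itga8 showed a median of 2471.5 genes against 2213.5 in those without. Among cells with at least 2000 genes the shares were 95.2% (20 of 21) and 78.6% (11 of 14). Both lineage- cells with Itga8 had Itgb1 as well. Over the 50 lineage+ cells the Pearson r of their log2 levels was 0.33, given as a description. Cell 35, highest in Itga8, had Itgb1 at 2.94 FPKM.

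**Figure D4:**
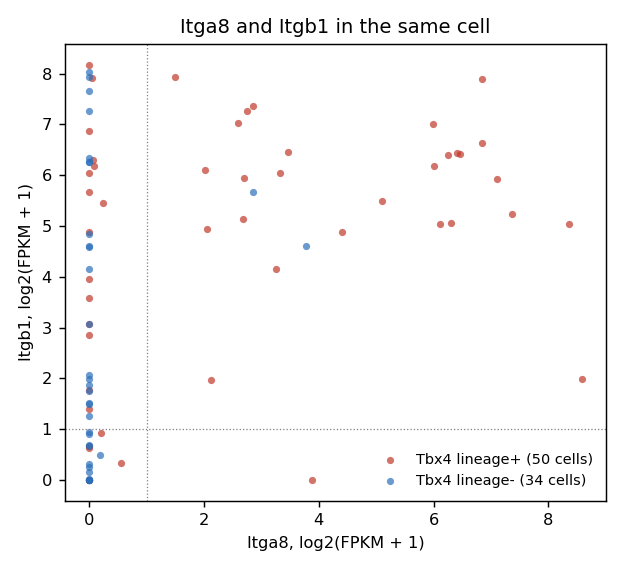
Itga8 against Itgb1 in each kept cell, both as log2(FPKM + 1), for 50 Tbx4 lineage+ and 34 Tbx4 lineage- cells. Dotted lines mark 1 FPKM. Of the 28 lineage+ cells to the right of the vertical line, 27 lie above the horizontal one.

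The other alpha chains were also found with Itgb1 in most of their cells, and Itgb1 was also in most cells without them. In lineage+ cells Itgb1 was detected in 21 of the 24 cells with Itgav (87.5%) and in 21 of the 26 without (80.8%). It was also seen in 6 of 7 cells with Itga5, in 4 of 4 with Itga3 and in 3 of 4 with Itga1. In lineage- cells it was detected in 7 of the 9 cells with Itgav and in 6 of the 9 with Itga3, beside 15 of the 25 without Itga3. The single Itga6 cell and both Itga5 cells had it too.

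Itgb5 shared 12 lineage+ cells with Itga8 and 7 with Itgav, the chain it is known to pair with. In lineage+ cells Itgb5 was detected in 12 of the 28 cells with Itga8 (42.9%, 24.5 to 62.8) and in 4 of the 22 without (18.2%, 5.19 to 40.3), and the intervals overlap. It was present in 7 of the 24 cells with Itgav (29.2%) and in 9 of the 26 without (34.6%), a difference within the counting error. Thus 9 of the 16 Itgb5 cells had no Itgav at 1 FPKM, but 5 of the 9 had a value above 0. The share of lineage+ cells with Itgav was 78% above 0 FPKM and 18% at 10 FPKM. All 12 cells with Itga8 and Itgb5 also had Itgb1.

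Itga8 and Itgav shared 14 lineage+ cells, and Itgav was about as frequent with Itga8 as without. Itgav was detected in 14 of the 28 lineage+ cells with Itga8 (50%) and in 10 of the 22 without (45.5%). All 14 shared cells held Itgb1 as well, 13 cells had Itga8 and Itgb1 without Itgav, and 7 had Itgav and Itgb1 without Itga8. The full sets seen most were Itga8 with Itgav and Itgb1 in 7 cells, Itgb1 alone in 7 cells, and Itga8 with Itgb1 and Itgb5 in 5 cells. In lineage- cells the commonest were none of the members in 10 cells, Itgb1 alone in 6 cells and Itga3 with Itgb1 in 4 cells. All 4 lineage+ cells with Itga1 also had Itga8.

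To see which kinds of cell held the members, cells were clustered with every integrin gene left out, and clusters were named from marker lists. Lineage+ cells fell into fibroblast-like clusters (41 cells, 82%) and a mesothelial-like one (9 cells, 18%). Fibroblast-like clusters 0 and 1, with 21 and 10 lineage+ cells, took their name from the alveolar fibroblast list. No marker of it was among their 10 leading genes. By mean log2 difference from all other cells, the adventitial list was nearly as high. The alveolar and adventitial values were 2.62 and 2.61 in cluster 0, 2.22 and 2.10 in cluster 1, and -0.28 and 1.61 in cluster 2. Cluster 2, with 10 lineage+ cells, took its name from the adventitial list and has Pi16 among its leading genes. Of 34 lineage- cells, 9 were in a type 2-like epithelial cluster, 9 in a type 1-like one and 8 in an immune-like one. With coarser clusters (resolution 0.5 in place of 1) every cell of the immune-like cluster was classed fibroblast-like, so that class is less certain. By its own markers cell 6 of that cluster was epithelial-like. The other 8 lineage- cells fell in clusters with lineage+ cells, and of the 7 in the fibroblast-like ones, 4 were immune-like, 1 epithelial-like and 2 fibroblast-like by their own markers. Those 8 are given no cell type here. The summed level of 11 immune markers had a median of 0 (at most 117 FPKM) in lineage+ cells. In lineage- cells it was 3285 FPKM (at most 69668 FPKM), and the gate left out CD45 cells. These markers were not limited to immune-like cells. In the type 2-like cluster, 3 of the 11 were detected in at least 30% of cells, against 7 in the immune-like cluster. The sum is therefore no measure of the number of immune cells. Ptprc, which encodes CD45, has no values, and Epcam was detected in 1 of the 50 lineage+ cells.

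Within lineage+, Itga8 was found mostly in fibroblast-like cells. At 1 FPKM it was present in 26 of 41 fibroblast-like lineage+ cells (63.4%, 46.9 to 77.9) and in 2 of 9 mesothelial-like ones (22.2%, 2.81 to 60.0), and the intervals overlap. With each cell classed by its own markers the counts were 25 of 40 and 3 of 10. By cluster, the counts were 16 of 21 cells of cluster 0 (mean 40.5 FPKM), 8 of 10 of cluster 1 (57.2 FPKM) and 2 of 10 of cluster 2. Single cells carried much of these means: without cell 49 that of cluster 1 was 27.3 FPKM, and without cell 35 that of cluster 2 went from 38.6 to 0.351 FPKM. It was below 1 FPKM in all 26 lineage- cells of the epithelial-like and immune-like clusters. The low share in cluster 2 goes with fewer genes per cell, a median of 1598.5 against 2599 in cluster 0 and 2213.5 in cluster 1. The part of gene number in it was not tested.

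Itgb5, like Itga8, was found mostly in cells of the fibroblast-like clusters within lineage+. All 4 lineage+ cells with Itga1 were in these clusters too, which hold 82% of lineage+ cells. By each cell's own markers, Itga1 was in 3 of 40 fibroblast-like and 1 of 10 mesothelial-like lineage+ cells. Itgb5 was in 15 of 40 and 1 of 10. That mesothelial-like cell was cell 8 for both genes, with Itga1 at 26.6 and Itgb5 at 44.7 FPKM. For Itgb5 the counts were 7 of 21, 7 of 10 and 2 of 10 lineage+ cells of clusters 0, 1 and 2, with means of 5.27, 32.8 and 4.55 FPKM. Without cell 25 the mean of cluster 2 was 2.03 FPKM. Itgb5 was listed at 0 in all 9 lineage+ cells of the mesothelial-like cluster, although these had a high median of 2875 genes. In the lineage- epithelial-like and immune-like clusters it was detected in 1 cell of cluster 4 and 1 of cluster 6.

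Itga3 was found mainly in epithelial-like and mesothelial-like cells. At 1 FPKM it was present in 6 of 9 type 1-like cells with a mean of 11.4 FPKM, in 3 of 9 type 2-like cells with a mean of 2.38 FPKM, and in none of the 8 immune-like cells. Without cell 31 the type 1-like mean was 5.89 FPKM, and without cell 7 the type 2-like mean was 1.32 FPKM. In lineage+ cells it was detected in 3 of 9 mesothelial-like cells, with a mean of 1.28 FPKM (0.789 FPKM without cell 26), and in 1 of the 41 fibroblast-like cells. Itgav was spread more widely, with 14 of 21, 3 of 10 and 3 of 10 cells of clusters 0, 1 and 2, 4 of 9 mesothelial-like, 4 of 9 type 1-like, 1 of 9 type 2-like and 1 of 8 immune-like cells.

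Itgb1 was found in every cluster. The counts were 19 of 21, 9 of 10 and 6 of 10 lineage+ cells of the fibroblast-like clusters 0, 1 and 2 and 8 of 9 mesothelial-like ones. In lineage- cells they were 7 of 8 immune-like, 5 of 9 type 2-like and 4 of 9 type 1-like cells. Its mean was 6.17 FPKM in type 2-like cells, 48.8 FPKM in type 1-like cells and 55.7 FPKM in immune-like cells. The medians were 1.40, 0.880 and 22.3 FPKM, so the type 1-like cells had the higher mean but the lower median and count of the 2 epithelial-like clusters. Without their highest cell the means were 4.01, 29.7 and 28.7 FPKM, each over 1.5 times lower for cells 8, 28 and 18.

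**Figure D5:**
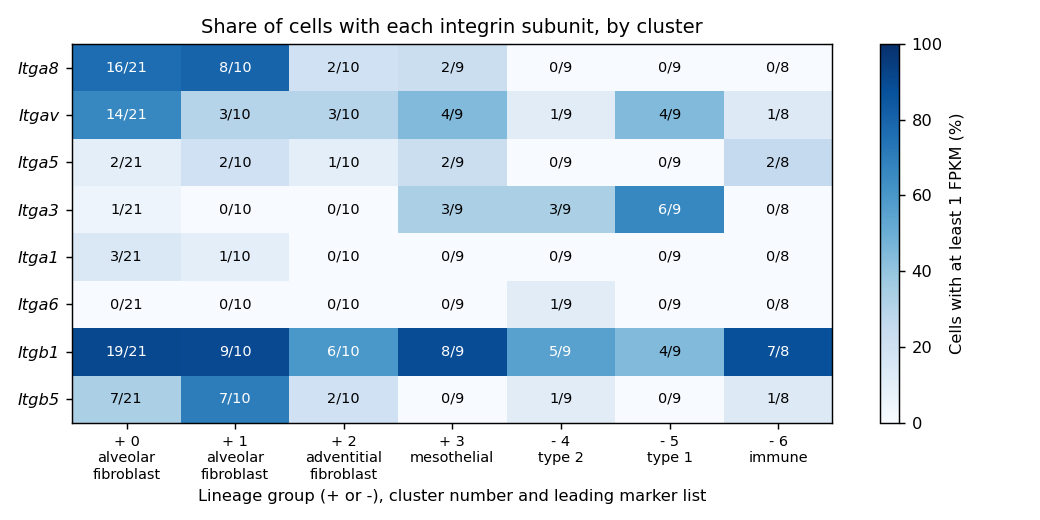
Share of cells with at least 1 FPKM of each of the 8 measured subunits, by cluster, where clusters were made without any integrin gene. Lineage+ cells of clusters 0 to 3 and lineage- cells of clusters 4 to 6 are shown. Lineage- cells that fell in clusters with lineage+ cells are not shown. Itga8 is detected in 16 of 21, 8 of 10 and 2 of 10 lineage+ cells of clusters 0, 1 and 2, and Itga3 in 6 of 9 type 1-like cells.

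Genes that varied with Itga8 were sought over the 50 lineage+ cells among 4057 genes, as a description, since the cells are of 1 sample and differ in the number of genes seen. Among the highest in Pearson r on log2(FPKM + 1) were D830031N03Rik (0.630), Eif4a3 (0.621), Serpine2 (0.572) and Tcf21 (0.566). Tcf21, a transcription factor of lung fibroblasts, was detected in 23 of the 28 cells with Itga8 and in 8 of the 22 without. For Itgb1 the highest included Rpl9 (0.497), Cd81 (0.478), Afap1 (0.471) and Zfand5 (0.462). For Itgav they were Pdzrn3 (0.561), Trp53inp1 (0.518) and Eif3g (0.514), and for Itgb5 Hsph1 (0.484), Pold4 (0.472) and Nid1 (0.470).

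Npnt encodes nephronectin, a ligand of the alpha 8 beta 1 integrin, and was looked at by that role after its values were seen. It was present in 20 of the 28 lineage+ cells with Itga8 (71.4%) and in 7 of the 22 without (31.8%), so receptor chain and ligand were often in the same cell. Cells with Itga8 also showed more genes, a median of 2471.5 against 2213.5, and the part of gene number was not tested. Npnt, like Tcf21, is on the alveolar fibroblast list. Most other measured genes of this list were also in a larger share of cells with Itga8. Macf1 was in 28 of 28 and 18 of 22 cells, whereas Ces1d was in 8 of 28 and 8 of 22. By mean level Cdh11 was also lower with Itga8, at 45.3 against 66.3 FPKM. The mean of Npnt was 33.9 FPKM over lineage+ and 24.7 FPKM over lineage- cells, a log2 ratio of 0.44. The ligand was thus not limited to the cells with Itga8. 

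Of 29 ligand and matrix genes, 27 had values and 22 passed the same minimum of 10% of cells. Of these, 15 were 2-fold or more above lineage- and 2 below, with a median log2 ratio of 1.90. For all genes so detected the median was 0.15, with 29.7% above and 23.4% below. Emilin1, Lama4, Lamb1, Svep1 and Tgfb3 passed through lineage+ cells alone, and Lama3 through lineage- cells alone. For such genes the minimum itself favours a difference in that direction, so the counts are a description only. Named by size were Lamb1, a laminin chain (35.8 against 1.60 FPKM), Thbs1, thrombospondin 1 (113 against 7.74), and Tgfb3, a TGF-beta that integrins can release from its latent form (61.3 against 5.22). Lama3, a laminin chain of epithelia, was lower, 0.517 against 13.0 FPKM. Without the highest cell of each group the log2 ratios of these 4 genes were 4.25, 4.38, 4.13 and -3.45, all past 2-fold.

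Among the adaptors that join integrins to actin, both directions were seen at shares near those of all detected genes. Of 25 adaptors 21 had values and 18 passed the minimum. Of these, 4 were 2-fold or more above lineage-, 3 below and 11 in between, with a median log2 ratio of -0.11. Among all genes so detected 29.7% were above and 23.4% below. Tgfb1i1 passed through lineage+ cells alone, and Fermt3, Ptk2 and Tln2 through lineage- cells alone. Zyx, zyxin, was at 78.3 against 18.5 FPKM and Lims2 at 8.85 against 2.79 FPKM. Without the highest cell of each group Lims2 was at 4.50 against 0.548 FPKM. Fermt3, the kindlin of blood cells, was at 0.0484 against 8.93 FPKM, and without those cells at 0.0271 against 3.76 FPKM. Itgb1bp1, which binds the beta 1 tail, was at 10.5 against 96.6 FPKM, but lineage- cell 34 at 2252 FPKM gave 68.5% of that sum, and without the highest cells the means were 3.95 and 31.3 FPKM.

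Of 17 further integrin genes, all with values, 5 passed the minimum, each through its share of lineage- cells alone. None of these was 2-fold above lineage- and 4 were below, beside 29.7% and 23.4% of all genes so detected. The minimum itself favours that direction, so nothing is drawn from these counts. Itga11, with a log2 ratio of 1.09 and detected in 3 of 50 lineage+ cells, did not pass. Itgb2, the beta chain of leukocyte integrins, was listed at 0 in all 50 lineage+ cells and detected in 9 of 34 lineage- cells with a mean of 46.0 FPKM, or 26.0 FPKM without the highest cell. Itgax, its alpha x partner, was listed at 0 in all 50 and detected in 10 of 34 with a mean of 30.5 FPKM, or 17.9 FPKM without it. Itga4 was at 0.283 against 4.45 FPKM and Itgal at 0.0398 against 1.52 FPKM, both known as alpha chains of leukocytes. Of the 8 immune-like cells, 1 had Itga4 and 5 had Itgal. The means of both genes rested on single cells. Lineage- cell 25, which showed 1 immune marker, gave 68.7% of the Itga4 sum. When the highest cells were dropped the Itga4 means were 0.0633 and 1.44 FPKM. For Itgal the log2 ratio then went from -1.28 to -0.77, short of 2-fold.

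Reads may be shared where genes overlap, and no source used here says that strand was kept. An exon of Itga8 overlaps the antisense gene E030013I19Rik, which was detected in 1 cell that also had Itga8. Exons of Itga1 and Itgav overlap Gm49395 and Gm13684, which have no values.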

How the data were processed

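Cells were caught on Fluidigm C1 chips, with SMARTer cDNA and Nextera XT libraries, per the labels' protocols. Per the submitters' processing notes the tools were RSEM 1.2.20 and Bowtie 1.1.1, and 2 builds, mm9 and GRCm38, are named with no role. The deposited values are taken as FPKM per gene and cell, 1 table per group, per the file headers and values; no source names the unit. Of 23846 gene rows, 1830 held no number and 731 repeated a symbol. One more row, whose symbols differ between the tables, was left out. Starts are printed with 1 added.

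Shares have exact Clopper-Pearson 95% intervals (scipy 1.17.1). Clustering used scanpy 1.11.5 with Leiden (igraph 0.11.9). Doublets were removed by eye, per the labels, and not called again. Scripts were tested on simulated data. Alternatives were other detection thresholds, pseudocounts, gene minimums and cluster resolutions, every profile counted, and leaving out the debris well or the highest cell. Differences of mean log2 values and cells classed by their own markers were also tried. Another alternative scaled each cell to a total of 1000000. Totals of kept cells ran from 154764 to 465392 FPKM in lineage+ and from 160080 to 1072420 FPKM in lineage-. Leaving out the highest cell for list genes and cluster means was added after seeing the data. The members and lists were chosen with earlier results of these data known. All members are named; of each list, the 4 genes with the largest log2 ratio among those detected, and 5 or 3 most alike genes per member. Some of the most alike genes are not reported here.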

Additional observations from a re-analysis of the deposited data

How the results depend on the processing

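No log2 ratio between the groups changed its sign under the alternatives run, though that of Itga6 went to 0 in some. The order of some cluster means did turn when the highest cell of each was left out. For Itga8, clusters 0 and 1 had 40.5 and 57.2 FPKM, then 34.3 and 27.3 FPKM. For Itgb1, type 1-like and immune-like cells had 48.8 and 55.7 FPKM, then 29.7 and 28.7 FPKM. The count of members at least 2-fold higher, 4, was 2 with every profile counted separately and 1 with a pseudocount of 10 FPKM. It was 3 with every cell kept, without the debris well, with the difference of mean log2 values and without the highest cell. It was also 3 among members detected in at least 10% of cells. These were Itga8, Itgb5 and Itga5, which all passed through lineage+ cells alone. The count lower, 1, was 0 with cells of at least 2000 genes, 0 with a pseudocount of 10, 0 with the difference of mean log2 values, and 2 with a pseudocount of 0.1. At a threshold of 10 FPKM, Itga8 was in 34% of lineage+ cells and the median number of members per cell was 1; the cause was not tested. Over the alternatives, log2 ratios ran from 2.18 to 5.88 for Itga8, 0.88 to 3.60 for Itgb5, -3.18 to -0.40 for Itga3 and 0.12 to 1.78 for Itgb1. The share of lineage- cells with Itgb1 was 83.3% with cells of at least 2000 genes, 88.2% above 0 FPKM and 38.2% at 10 FPKM. Itgb1 was found in 88.2% to 97.1% of Itga8 cells, and in 63.6% to 85.7% of cells without Itga8. The 85.7% came with each cell scaled to a total of 1000000, where 96.6% of Itga8 cells had Itgb1. No paired analysis was possible because each group is 1 sample and replicate numbers name unrelated cells. Shallow cells limit what a value of 0 can say.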
